A study of Mus musculus with 6 samples.

Results

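Snai1, Snai2, Zeb1, Zeb2, Twist1, Twist2, Prrx1 and Prrx2 encode DNA-binding proteins known for turning on or holding a mesenchymal gene programme. These 8 genes, of 55401 in the deposited tables, were chosen by gene name, with earlier results of IPRN against DMSO in the same libraries known, among them a rise of Snai1 and a fall of Prrx1. The values of those 2 genes are therefore given as a description, with no p-value. Counts of called genes given below include both genes and are no evidence for either. The p-values of the other 6 come from a fit of all genes but do not stand as independent evidence.

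The Snail proteins (Snai1, and Snai2, also called Slug) are zinc finger repressors that bind E-boxes, short DNA words of the form CANNTG, in the control regions of epithelial genes such as the E-cadherin gene. The Zeb proteins combine zinc finger clusters with a homeodomain and repress through the same words, and the Twist proteins are basic helix-loop-helix factors that bind E-boxes as dimers with E proteins. The Prrx proteins are paired-related homeodomain factors of limb and craniofacial mesenchyme, and Prrx1 is also used as a marker of fibroblast lineages.

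NIH3T3 is an immortalised fibroblast line derived from mouse embryos, labelled wild type in all samples. Messenger RNA was sequenced from 3 libraries of cells given DMSO, the vehicle, and 3 libraries of cells given IPRN. The series title names angelicin, and the design text describes induction of the line with hydrogen peroxide and TGF-β to model cancer-associated fibroblasts. The labels give no dose or time, leave unsaid whether hydrogen peroxide and TGF-β were added to the DMSO cells too, and do not tell whether the libraries came from separate cultures.

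Total counts ran from 60320282 to 78629444 per library, and the 8 genes had between 1128 and 38847 counts each, so that counting error was at most 2.98% of a value. Levels are given as CPM (the count scaled to a common library total by the TMM method), as mean ± SD over 3 libraries. Summed over 8 fibroblast markers, the level was between 20372 and 24963 CPM in all libraries. The sum over 8 skeletal muscle markers was 1.4 to 1.8 CPM in DMSO and 0.51 to 1.2 CPM in IPRN. Of these, the muscle factors Myod1, Myog and Myf5 were at 0. The sum over 8 epithelial markers was 0 to 0.612 CPM in DMSO and 0.186 to 2.01 CPM in IPRN. Macrophage markers summed to 3.31, 12.4 and 14.7 CPM in DMSO 1, 2 and 3 and to 15.2, 15.9 and 124 CPM in IPRN 1, 2 and 3. Liver markers summed to 44.0, 110 and 84.2 CPM in DMSO and to 145, 62.9 and 21.8 CPM in IPRN. In DMSO 1 and IPRN 3 most of this sum was Hp. Hp had 2366, 2975 and 3235 counts in DMSO and 1091, 1191 and 964 in IPRN. Alb, the albumin gene, had 0, 1544 and 899 counts in DMSO and 3051, 1018 and 12 in IPRN. IPRN 3, highest in macrophage markers, and DMSO 1, lowest in them, stood apart here, and IPRN 1 differed more from the other IPRN libraries over all genes than any other pair of replicates did. The part of these differences in the results below was not tested, and results are also given without the libraries concerned where that changes them.

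The promoters of Snai1 and Prrx1 are shown because the known differences of these genes led to the choice of the set. Both are RefSeq sequence on GRCm38.p6, read 5′ to 3′ on the gene's strand and ending at the base before the GENCODE gene model, and capitals mark the words described next.
Snai1 (chr2:167537945-167538194, plus strand): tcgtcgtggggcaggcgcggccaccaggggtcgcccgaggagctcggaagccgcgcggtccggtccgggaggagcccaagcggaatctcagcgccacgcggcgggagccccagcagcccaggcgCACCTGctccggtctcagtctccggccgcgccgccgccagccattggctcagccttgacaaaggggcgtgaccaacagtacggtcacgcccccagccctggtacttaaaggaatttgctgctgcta
Prrx1 (chr1:163313711-163313900, minus strand): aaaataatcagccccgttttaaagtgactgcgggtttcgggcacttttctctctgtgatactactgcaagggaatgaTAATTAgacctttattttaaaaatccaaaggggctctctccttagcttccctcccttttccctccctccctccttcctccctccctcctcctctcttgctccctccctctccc

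The Snai1 promoter held 1 E-box, CACCTG, 126 to 121 bases before the gene's start. This is the word that Snail proteins themselves bind (CAGGTG read from the other strand). RefSeq promoters were found for 6 of the 8 genes, with 9 start sites in all, and not for Snai2 or Zeb1. Of the 6, only Snai1 had an E-box of any form in the 250 bases before its start. Among 32851 mouse promoter windows of that length, 66.2% held CANNTG and 17.2% held CAGGTG, counting both strands. In the Prrx1 promoter the homeodomain core TAATTA lay 113 to 108 bases before the GENCODE start, a word found in 4.84% of the windows. The Snai1, Twist2 and Prrx2 windows were rich in CpG, with 27, 23 and 21 such dinucleotides and 70%, 68.8% and 70% G + C, against medians of 6 and 52.4% over all windows. The Twist1 window had 18 CpG dinucleotides and 62.4% G + C, and the Zeb2 windows had 6 to 14 and 49.6% to 57.6%. The Prrx1 window had 4 CpG dinucleotides and 47.6% G + C. Such matches describe the letters only, and no binding was measured.

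Snai1 was higher under IPRN by about 1.92-fold, and Prrx1, the gene with the highest count among the 8, was lower by 1.195-fold. Snai2 and Zeb1 also had no overlap between the groups, higher and lower under IPRN by 1.24-fold and 1.35-fold, without passing the test. Zeb2, Twist1, Twist2 and Prrx2 had overlapping groups. In edgeR's quasi-likelihood fit, with p-values adjusted over all 17159 genes tested and a call at an adjusted p under 0.05, 1 of the 8 was called higher and 1 lower. The background was 2.46% of genes called higher, 3.01% called lower and 5.47% in all, and nothing is read from the count because the choice of genes used this contrast. The count was 0 without DMSO 1, without DMSO 2 or without DMSO 3, 1 without IPRN 2 or without IPRN 3, and 2 without IPRN 1. Groups that did not overlap were found for 4 of the 8 and for 29.6% of all genes. In bulk RNA, fewer cells expressing a gene and less RNA per cell cannot be told apart.

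**Figure D1:**
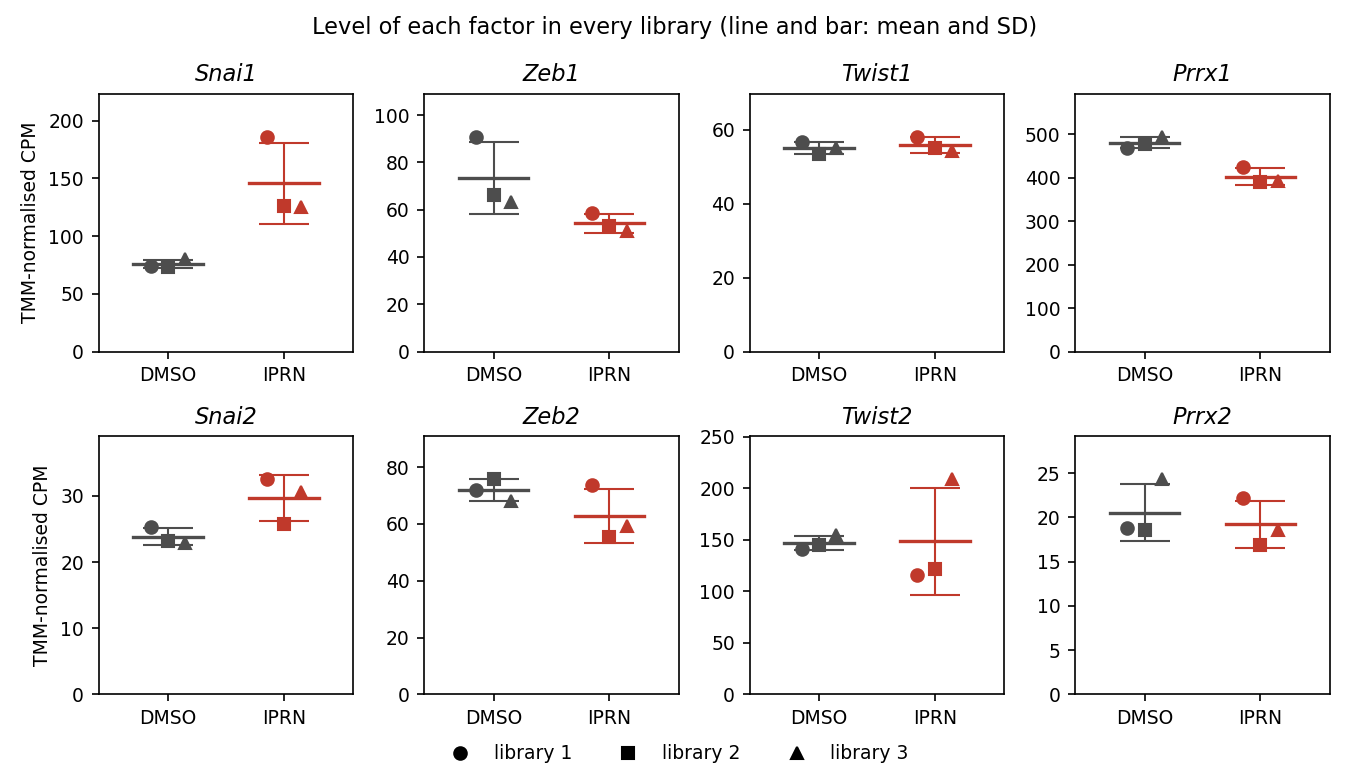
TMM-normalised CPM of each gene in the 6 libraries, with 1 panel per gene; points are libraries (shapes give the number), lines are group means and bars are SD. Snai1 is higher in all IPRN libraries, Prrx1 is lower in all of them, and the spread of Twist2 under IPRN comes from IPRN 3.

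The genes are protein-coding models, placed here on GRCm38. Snai1 (ENSMUSG00000042821, chr2:167538195-167542814, plus strand), the most studied trigger of epithelial to mesenchymal transition, was at 74.2, 73.4 and 80.2 CPM in DMSO 1, 2 and 3 and at 186, 126 and 125 CPM in IPRN 1, 2 and 3. All IPRN libraries lay above all DMSO libraries, and IPRN 1 stood well above the other IPRN libraries. The means were 76.0 ± 3.71 and 146 ± 35.0 CPM (SD, n = 3 each), a log2 difference of 0.94 ± 0.16 (SE). Leaving out each library in turn gave log2 differences of 0.73 to 1.04.

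Snai2 (ENSMUSG00000022676, chr16:14705852-14709385, plus strand), a relative of Snai1 active in neural crest and mesenchymal cells, was at 25.3, 23.2 and 22.9 CPM in DMSO and at 32.5, 25.8 and 30.6 CPM in IPRN. The lowest IPRN library was just above the highest DMSO library. The means were 23.8 ± 1.29 and 29.6 ± 3.48 CPM (SD, n = 3 each), and the log2 difference of 0.32 ± 0.11 did not pass (edgeR adjusted p = 0.136). Snai3, the third Snail gene, had a count of 0 in all 6 libraries.

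Zeb1 (ENSMUSG00000024238, on chromosome 18), a repressor of epithelial genes and of the miR-200 family, was at 91.0, 66.1 and 63.3 CPM in DMSO and at 58.6, 53.1 and 51.0 CPM in IPRN. The groups did not overlap, but DMSO 1 lay far above DMSO 2 and 3. The log2 difference was -0.44 ± 0.14, from 73.4 ± 15.2 to 54.3 ± 3.90 CPM (SD, n = 3 each), and it did not pass in edgeR (adjusted p = 0.131) while it did in DESeq2 (adjusted p = 0.0299). Without DMSO 1 it was -0.25. The antisense model Gm10125 covers 1.93% of its exon bases and none of its coding bases.

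Zeb2 (ENSMUSG00000026872, chr2:44983632-45117395, minus strand), the Smad-interacting relative of Zeb1, was at 72.1, 75.7 and 68.0 CPM in DMSO and at 73.6, 55.4 and 59.5 CPM in IPRN. IPRN 2 and 3 lay below the DMSO libraries and IPRN 1 among them. The log2 difference was -0.20 ± 0.11 (edgeR adjusted p = 0.368), and without IPRN 1 it was -0.32 (adjusted p = 0.0507). The antisense model Zeb2os shares 3.27% of its exon bases, none of them coding.

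Twist1 (ENSMUSG00000035799, chr12:33957671-33959829, plus strand), needed for cranial mesenchyme and neural crest development, varied little between libraries, at 56.8, 53.5 and 55.1 CPM in DMSO and at 58.2, 55.1 and 54.2 CPM in IPRN. The groups overlapped throughout. The log2 difference was 0.02 ± 0.06 (edgeR adjusted p = 0.901), from 55.1 ± 1.64 to 55.8 ± 2.06 CPM (SD, n = 3 each).

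Twist2 (ENSMUSG00000007805, chr1:91801461-91848028, plus strand), the dermal relative of Twist1, was at 142, 145 and 155 CPM in DMSO and at 116, 122 and 209 CPM in IPRN. IPRN 1 and 2 lay below all DMSO libraries and IPRN 3 above all of them, so the coefficient of variation was 35.0% in IPRN against 4.60% in DMSO. The log2 difference over all libraries was 0.02 ± 0.22 (edgeR adjusted p = 0.979). Without IPRN 3 it was -0.31 (adjusted p = 0.0744), so that 1 library set its direction.

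A gene model on the opposite strand, Gm29100, shares 1477 exon bases with Twist2, which are 46.5% of the Twist2 exon bases and include all 480 coding bases. Gm29100 was at 11.7, 14.2 and 6.32 CPM in DMSO and at 4.56, 6.68 and 95.6 CPM in IPRN. IPRN 3 was thus high for both models, with 6157 counts for Gm29100 against 325 to 1033 in the other libraries. The library protocol describes no step that marks the strand and the strand setting of the counting is not given, so it is unknown whether reads from the shared bases were assigned to the right model. The part of Gm29100 in the Twist2 value of IPRN 3 was not tested. IPRN 3, which also had the highest macrophage marker sum, was not high for Twist1.

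**Figure D2:**
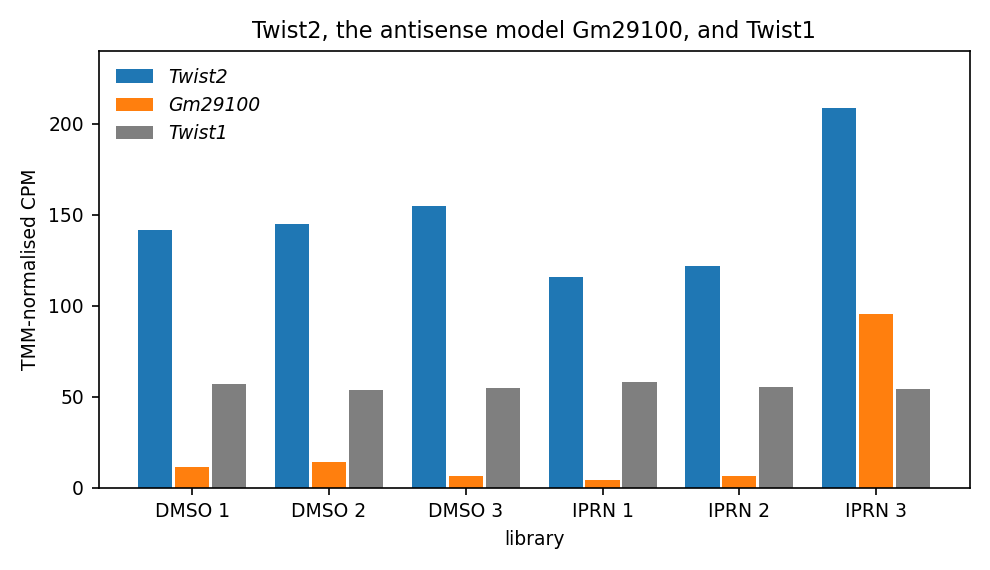
TMM-normalised CPM of Twist2, the overlapping antisense model Gm29100 and Twist1 in each library; bars are single libraries. Twist2 and Gm29100 are both highest in IPRN 3, at 209 and 95.6 CPM, while Twist1 stays between 53.5 and 58.2 CPM.

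Prrx1 (ENSMUSG00000026586, chr1:163245119-163313710, minus strand) was at 470, 478 and 495 CPM in DMSO and at 425, 390 and 393 CPM in IPRN. Every IPRN library lay below every DMSO library, and the spread within each group was small. The means were 481 ± 13.0 and 402 ± 19.5 CPM (SD, n = 3 each), a log2 difference of -0.26 ± 0.05 (SE). Leaving out each library in turn gave -0.30 to -0.23.

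Prrx2 (ENSMUSG00000039476, chr2:30834972-30881251, plus strand), a relative with overlapping roles in limb and skull development, was at 18.8, 18.6 and 24.3 CPM in DMSO and at 22.2, 16.9 and 18.6 CPM in IPRN. The groups overlapped, with DMSO 3 the highest library. The log2 difference was -0.09 ± 0.15 (edgeR adjusted p = 0.787), from 20.6 ± 3.25 to 19.2 ± 2.66 CPM (SD, n = 3 each).

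**Figure D3:**
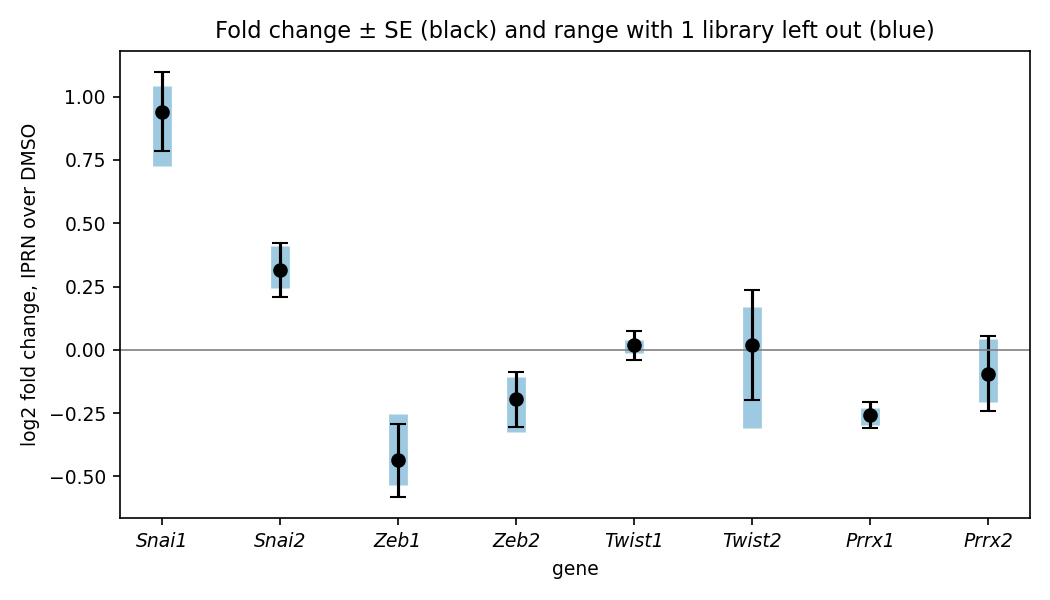
Log2 difference of IPRN over DMSO with its SE for the 8 genes, with blue bars for the range over the fits that leave out 1 library. Snai1 stands highest at 0.94, Zeb1 lowest at -0.44, and the blue bars of Twist1, Twist2 and Prrx2 lie on both sides of 0.

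Levels of different genes were compared by the deposited FPKM. The lengths it implies followed the summed exon lengths of the gene models, so transcripts of different length from 1 gene were not separated. In DMSO the mean FPKM was 42.1 for Snai1, 41.6 for Twist2, 39.0 for Prrx1, 30.4 for Twist1, 10.6 for Snai2, 9.39 for Prrx2, 6.42 for Zeb1 and 3.19 for Zeb2. In DMSO, Twist2 overlapped both Snai1 and Prrx1, while every Snai1 value lay above every Prrx1 value, and Snai2 and Prrx2 overlapped. Zeb1 was second lowest and Zeb2 lowest in all 6 libraries. In IPRN, Snai1 had the highest FPKM in every library, at 80.7 ± 18.0 (SD, n = 3), followed by Twist2 at 42.3 ± 15.4 and Prrx1 at 32.7 ± 1.09. That second place of Twist2 by mean rests on IPRN 3, since Twist2 was at 32.3 and 34.7 FPKM in IPRN 1 and 2, and in IPRN 1 it was below Prrx1, at 33.9 FPKM. The order was the same in each library when counts were divided by annotated exon length. That is no separate check, because the deposited FPKM implies nearly proportional lengths. These were 1803 bases against 1621 annotated for Snai1, and 22500 against 19942 for Zeb2.

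Within families, Snai1 made up 78.5%, 79.8% and 81.3% of the summed FPKM of Snai1 and Snai2 in DMSO and 87.7%, 85.9% and 83.6% in IPRN. The ratio of Snai1 to Snai2 FPKM was 3.99 ± 0.352 in DMSO and 6.11 ± 1.02 in IPRN, with no overlap. The Zeb1 to Zeb2 ratio was 2.01 ± 0.414 and 1.72 ± 0.164, the Prrx1 to Prrx2 ratio 4.21 ± 0.517 and 3.74 ± 0.341, and the Twist1 to Twist2 ratio 0.732 ± 0.0448 and 0.789 ± 0.250 (SD, n = 3 each). These last 3 ratios overlapped between the groups. Summed over the 8 genes, FPKM was 183 ± 5.04 in DMSO and 216 ± 19.9 in IPRN, and without Snai1 it was 141 ± 3.16 and 135 ± 15.1.

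**Figure D4:**
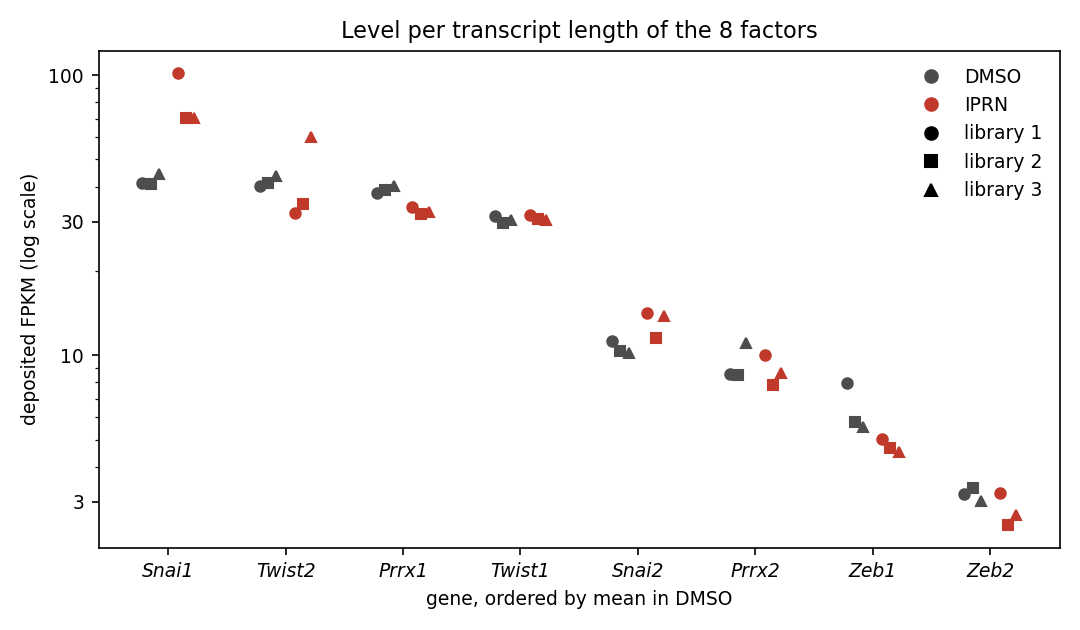
Deposited FPKM of each gene (log axis), with DMSO and IPRN libraries side by side; genes are ordered by mean FPKM in DMSO and each mark is a library. Snai1 is between 40.8 and 44.3 FPKM in DMSO and between 70.1 and 101 FPKM in IPRN, while Zeb2 is lowest, at 2.47 to 3.37 FPKM.

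The genes whose log2 CPM followed Snai1 most closely over the 6 libraries were Ulk1, the kinase that starts autophagy, Axl, a receptor tyrosine kinase, and Txndc5, an endoplasmic reticulum thioredoxin protein. Their Pearson correlations were 0.9996, 0.9985 and 0.9980 among 9860 protein-coding genes, of which 396 were above 0.95. Ulk1 was at 43.5, 43.0 and 45.4 CPM in DMSO and at 69.3, 57.2 and 57.3 CPM in IPRN. As for Snai1, IPRN 1 was highest, which adds nothing to the correlation by which Ulk1 was chosen. For Prrx1 the closest genes were Ankle2, a nuclear envelope protein, Zfp36, which promotes decay of AU-rich mRNA, and Sgpp1, a sphingosine phosphate phosphatase, at 0.9960, 0.9954 and 0.9938, with 169 genes above 0.95. These values describe 6 libraries of differing depth in 2 treatment groups, and carry no test. Txndc5, Ankle2 and Zfp36 share exon bases with other gene models, so their values are uncertain to that extent.

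The lists around these factors held 216 symbols, of which 214 were in the tables and 163 were tested, and 16 were called. Over all genes tested, 5.47% were called, 2.46% higher and 3.01% lower, and DESeq2 called 2143 genes. The share of all genes at an unadjusted p under 0.05 is not given here. Nothing is read from the counts per list, because the lists were chosen with earlier results of these data known. The median log2 difference over all 17159 genes was 0.00. Of the relatives in the same families, 2 were tested and 0 called, 0 also at an unadjusted p under 0.05 and 0 in DESeq2. These were Shox2 (39.0 CPM in DMSO, 35.6 in IPRN, edgeR adjusted p = 0.762) and Scx (0.541 and 0.616 CPM, adjusted p = 0.896). Among other mesenchymal transcription factors 0 of 19 rose and 1 fell, with a median of -0.06. Sox4, an SRY-related factor, fell by 0.22 on the log2 scale from 236 ± 4.06 to 203 ± 2.84 CPM (edgeR adjusted p = 0.0306). Hmga2, an architectural DNA-binding protein that can induce Snai1, was at 765 ± 14.8 and 960 ± 143 CPM (adjusted p = 0.111). Hmga2 passed in DESeq2 (adjusted p = 0.0224) and, without IPRN 1, in edgeR (log2 0.20, adjusted p = 0.0213).

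Of the corepressors and chromatin partners of the Snail and Zeb proteins, 1 of 24 rose and 0 fell, with a median of 0.06. Ajuba, a LIM protein that bridges Snail to chromatin enzymes, rose from 45.7 ± 1.25 to 63.2 ± 5.62 CPM (log2 0.47, edgeR adjusted p = 0.0238). The G9a histone methyltransferase gene Ehmt2 was at 211 and 235 CPM (adjusted p = 0.132), and it passed in edgeR without IPRN 1 (adjusted p = 0.0333). Of the E proteins and ID inhibitors, which pair with Twist or block that pairing, 1 of 7 rose and 0 fell, with a median of 0.14. Id1, an inhibitor that sequesters E proteins, rose from 64.9 ± 1.07 to 104 ± 2.60 CPM (log2 0.68, edgeR adjusted p = 0.000862), and the E protein gene Tcf3 was at 136 and 157 CPM (adjusted p = 0.115). Of the kinases, phosphatases and ubiquitin enzymes that act on Snail and Twist proteins, 0 of 29 rose and 1 fell, with a median of -0.02. The one that fell was Cops5, the catalytic subunit of the COP9 signalosome, from 161 ± 0.376 to 137 ± 1.63 CPM (edgeR adjusted p = 0.0273). Akt1 was at 407 and 436 CPM (adjusted p = 0.233).

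Among signals upstream of the factors 2 of 33 rose and 1 fell, with a median of 0.08. The Notch target Hes1 rose from 9.19 ± 1.497 to 15.2 ± 0.943 CPM (edgeR adjusted p = 0.0316), as did Fgfr1, an FGF receptor (308 to 367 CPM, adjusted p = 0.0295), and Bmpr1a, a BMP receptor, fell from 120 ± 1.38 to 97.8 ± 3.31 CPM (adjusted p = 0.0208). Of 33 mesenchymal genes linked to the factors, 6 rose and 3 fell, with a median of 0.09. Fn1, which encodes the matrix protein fibronectin, rose from 5011 ± 83.2 to 6474 ± 398 CPM (edgeR adjusted p = 0.0153), with Acta2, Tagln, Itga5, Axl and Mmp14. Lum, which encodes the collagen-binding proteoglycan lumican, fell from 14.8 ± 0.214 to 5.23 ± 0.420 CPM (adjusted p = 0.000716), with Pdgfra and Postn. Of 16 epithelial genes that Snail and Zeb factors repress, 0 were called in edgeR, 3 had an unadjusted p under 0.05 and 1 was called in DESeq2. The median was 0.28, with 10 of the 16 above 0, but only 4 had a group mean of at least 1 CPM. The 3 genes were Tjp1 and Jup, which were higher under IPRN, and Patj, which was lower. Patj was at 5.56 and 4.37 CPM (edgeR unadjusted p = 0.0429, adjusted p = 0.208). Tjp1, a tight junction scaffold, was at 110.9 and 123.5 CPM (edgeR adjusted p = 0.116). Jup, the junction protein plakoglobin, was at 17.65 and 26.99 CPM (adjusted p = 0.0532 in edgeR and 0.00124 in DESeq2). Cdh1, the E-cadherin gene, had 0, 0 and 4 counts in DMSO and 15, 45 and 4 in IPRN and was not tested. An edgeR unadjusted p under 0.05 was more frequent in every other list except the relatives. It was found for 8 of 19 mesenchymal transcription factors, 9 of 24 corepressors and 4 of 7 E proteins and ID inhibitors. The counts were 9 of 29 for the enzymes, 12 of 33 for the upstream signals and 18 of 33 for the mesenchymal genes.

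Of the 16 listed genes called, 4 (Id1, Lum, Pdgfra and Postn) kept the call whichever library was left out, and 8 (Sox4, Ajuba, Cops5, Bmpr1a, Fgfr1, Acta2, Axl and Mmp14) kept it only without IPRN 1. Itga5 kept it in 4 of those 6 fits, Fn1 and Tagln in 2, and Hes1 in 0. Sox4, Cops5, Bmpr1a, Fgfr1, Fn1, Hmga2, Pdgfra, Tagln and Shox2 share exon bases with other gene models, so their values are uncertain to that extent.

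**Figure D5:**
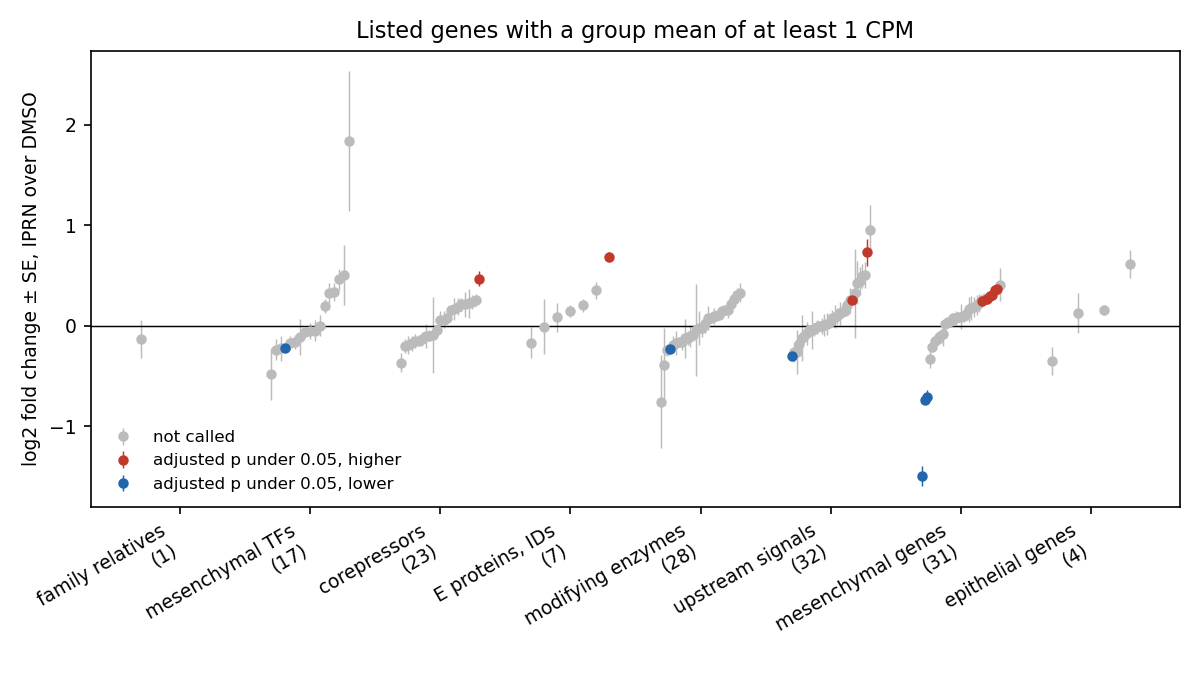
Log2 difference of IPRN over DMSO with its SE for each listed gene with a group mean of at least 1 CPM, by list, sorted within a list; red and blue mark genes called higher and lower in edgeR and grey the rest. Lum is lowest among the mesenchymal genes, and no epithelial gene is coloured.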

How the data were processed

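Messenger RNA of NIH3T3 cells was captured with oligo(dT), fragmented and reverse transcribed with random hexamers, per the labels' protocols. Per the file headers, the authors deposited a raw count and an FPKM value per gene for each of 6 libraries. The submitters' processing notes name cutadapt 1.9. Aligner, counter, strand setting, build and annotation: not given in the sources used here. Identical coordinates were found for 94.2% of the 55141 gene identifiers shared with GENCODE M21 on GRCm38, all 8 genes described included.

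The test of the counts used edgeR 4.0.16 in R 4.3.3 (TMM, expression filter with a minimum count of 10, quasi-likelihood test on group, two-sided, Benjamini-Hochberg over 17159 genes). DESeq2 1.42.0 was an alternative. Replicates may be technical, and p-values then reflect no more than the variation among these libraries. FPKM served only to compare genes per length. A floor of 3 counts was 0.0382 to 0.0497 CPM; PCR duplicates were not separated, so it covers counting error only.

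The members and lists were chosen with earlier results of these data known. Named were the 8 genes, per list the called genes with the largest rise and fall or else the most abundant up to 2, and for Snai1 and Prrx1 the 3 protein-coding genes of at least 5 CPM most correlated with each. Other names that only fill a count, and Fgfr1, Cdh1, Snai3, Patj, Alb and Hp, were chosen after their values were seen. Alternatives were DESeq2, other filters and scalings, a replicate block, and fits without single libraries or without DMSO 1 and IPRN 3.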

Additional observations from a re-analysis of the deposited data

How the results depend on the processing

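Of all genes, 938 were called, against 2143 with DESeq2, 621 with no filter, 429 with a term for DMSO 1 and IPRN 3, 53 without those 2 libraries, and 133 to 1047 when each library was left out in turn. Of the 8 factors, 2 were called, against 3 with DESeq2, 1 with no filter, 1 with the term, 0 without both libraries and 0 to 2 with each library left out. Of the listed genes, 16 were called, against 38 with DESeq2, 9 with the term, 2 without both libraries and 4 to 28 with each library left out. Without both libraries the log2 difference was 1.02 for Snai1 and -0.26 for Prrx1. Fits on fewer libraries have fewer degrees of freedom. For the other settings the cause was not tested.

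With a replicate block, 103 genes were called in all, 0 of the 8 factors and 4 of the listed genes. Same-numbered libraries had correlations of deviations of -0.17, 0.09 and -0.13 (numbers 1, 2 and 3). The highest value for any DMSO and IPRN library was 0.24, for DMSO 1 with IPRN 3. The labels do not say that the numbers pair the samples, and they were not taken to do so.

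The direction turned for Twist2 with the block (-0.0357), with the term (-0.0373) and without both libraries (-0.34). It turned in some fits with 1 library left out for Twist2 (-0.31 to 0.17), Twist1 (-0.0109 to 0.0409), Prrx2 (-0.21 to 0.0432), Shox2 (-0.31 to 0.0391) and Scx (-0.14 to 0.52), none of which was called. Jup passed the threshold with DESeq2 (adjusted p = 0.00124), with genes averaging at least 50 counts (0.0452), with library totals without TMM (0.0461) and with protein-coding genes only (0.0363), but in no other alternative. Depth did not limit the 8 factors, whose spread between libraries exceeded counting error, but most epithelial genes had too few counts to be tested.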
